A study of Mus musculus with 12 samples.

Results

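The fetal gene programme of the heart was represented by 7 genes: the natriuretic peptide genes Nppa and Nppb, the myosin heavy chain genes Myh6, Myh7 and Myh7b, and the sarcomeric actin genes Acta1 and Actc1. They were chosen by symbol, and all 7 were found among the 53801 genes of both the count matrix and the TPM matrix (TPM is a share of all transcripts, corrected for transcript length). RNA sequencing was performed on whole hearts of adult male C57BL/6N mice aged 10 to 14 weeks. The mice had undergone either permanent ligation of the left coronary artery, which causes acute myocardial infarction (AMI), or a sham operation. The Sham group, the Day 1 AMI group (hearts taken 1 day after ligation) and the Day 7 AMI group (7 days after ligation) held 4 hearts each, and the time of harvest of the Sham hearts is not given in the sources used here. The 12 libraries held between 23204551 and 32166517 counts, with a median of 25338048.

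Cardiomyocytes of the fetal mouse ventricle make atrial and B-type natriuretic peptide, the slow beta-myosin heavy chain and skeletal alpha-actin. Around birth this myosin is largely replaced by the fast alpha-myosin heavy chain, while skeletal alpha-actin declines beside cardiac alpha-actin. Adult hearts under load or after injury are known to return to part of the fetal pattern. Natriuretic peptides are hormones that promote salt and water excretion and relax blood vessels, while the myosin and actin isoforms set the speed and economy of contraction.

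The promoters of Nppa, Acta1 and Myh7 are shown because these genes are classic targets of the cardiac transcription factors named here. Each sequence is the stretch of 250 bases before the RefSeq start, given 5′ to 3′ on the strand of the gene in build GRCm38.p6, and the capitals mark motif matches on either strand. RefSeq windows were found for 7 of 7 members, and the Myh7 window shown is the one nearest to the annotated gene start of 2 in the table. The windows lie at chr4:148000472-148000721 on the plus strand for Nppa, at chr8:123894776-123895025 on the minus strand for Acta1 and at chr14:54994627-54994876 on the minus strand for Myh7.
Nppa promoter: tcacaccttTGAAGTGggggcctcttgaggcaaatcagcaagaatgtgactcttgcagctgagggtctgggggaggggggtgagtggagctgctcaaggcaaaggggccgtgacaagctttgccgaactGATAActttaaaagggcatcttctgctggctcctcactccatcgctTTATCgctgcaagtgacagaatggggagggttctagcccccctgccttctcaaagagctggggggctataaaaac
Acta1 promoter: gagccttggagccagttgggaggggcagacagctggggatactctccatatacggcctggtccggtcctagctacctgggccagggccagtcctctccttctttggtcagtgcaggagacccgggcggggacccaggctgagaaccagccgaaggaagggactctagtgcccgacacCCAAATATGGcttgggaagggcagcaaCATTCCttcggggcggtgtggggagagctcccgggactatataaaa
Myh7 promoter: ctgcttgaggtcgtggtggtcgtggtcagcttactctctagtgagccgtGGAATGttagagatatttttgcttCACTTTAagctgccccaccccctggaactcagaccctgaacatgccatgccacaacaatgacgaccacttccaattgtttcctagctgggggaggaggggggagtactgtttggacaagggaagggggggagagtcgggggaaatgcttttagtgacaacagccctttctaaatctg
The motifs searched on both strands were GATAA (GATA factors), CATTCC (TEAD factors), TNAAGTG (NKX2-5), the CArG box (SRF) and the MEF2 site, and no match overlapped another. Nppb, not shown, held none of them in the 138 bases searched, which end at its annotated gene start. The 112 bases from there to the RefSeq start were not searched. Nppa held 2 GATAA matches, at 121 to 117 and at 75 to 71 bases before the start, and 1 TNAAGTG match at 241 to 235. Acta1 held a CArG box at 73 to 64 and CATTCC at 46 to 41 bases before the start. Myh7 held CATTCC at 201 to 196 and TNAAGTG at 177 to 171, both on the opposite strand. Of 32851 promoter windows of 250 bases, 22.6% held GATAA, 12.6% CATTCC, 10.1% TNAAGTG, 1.47% the CArG box and 2.92% the MEF2 site. In the first 138 bases of each window, the stretch searched for Nppb, the shares were 14.6%, 7.49%, 5.85%, 0.721% and 1.63%. A match describes these letters and not a bound site, and binding was not measured. Of these motifs, the CArG box of Acta1 was the rarest among promoters.

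Changes in RNA were tested with edgeR's quasi-likelihood test on the counts, in a model of all 12 libraries, with Benjamini-Hochberg adjustment (FDR) over the 15306 genes that passed the filter on low counts. All 7 members passed that filter. A gene rose or fell where the FDR was below 0.05, and a differentially expressed gene (DEG) also had a fold change of 2 or greater. Both AMI groups were set against the same 4 Sham hearts, so these comparisons are not independent. Scaling shaped the general level of the fold changes. Relative to the values given here, the median log2 fold change of all genes lay 0.27, 0.40 and 0.13 higher with library sizes alone, for Day 1 AMI against Sham, Day 7 AMI against Sham and Day 7 against Day 1. It lay 0.29, 0.45 and 0.17 higher with limma on log2(TPM + 1), and 0.34, 0.53 and 0.19 higher with a pseudocount of 0.1. The share of DEGs that were higher was 72.3%, 72.3% and 76.1% in these comparisons, against 89.0%, 92.0% and 84.7% with library sizes alone. With limma the share was 93.7%, 95.9% and 86.8% at a pseudocount of 1, and 92.8%, 95.2% and 88.6% at 0.1. No member that rose or fell changed sign under any of these scalings. For the genes of the lists below, these scalings and the fits with a heart left out were chosen after seeing the data.

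In Day 1 AMI hearts 3 of the 7 members rose (Nppb, Nppa and Myh7) and 2 fell (Myh7b and Myh6). At this threshold 22% of all genes tested rose and 19.9% fell. As DEGs, 3 members were higher and 1 was lower, against 7.79% and 2.98% of all genes. In Day 7 AMI hearts 4 members rose (the same 3 and Acta1) and 2 fell, beside 30.9% and 28.4% of all genes. These same 4 and 2 members were DEGs, beside 15.3% and 5.88% of all genes. With library sizes alone, and with limma on TPM, only the 4 that rose were DEGs. The call of Acta1 depended on the setting on both days, and its difference between the days did not pass. Between Day 7 and Day 1, 1 member rose (Myh7) and 1 fell (Nppb), both DEGs, beside 24.2% and 22.8% of all genes at the FDR threshold and 8.55% and 2.69% as DEGs. The median log2 fold change of the members was 1.18, 1.26 and 0.09 in the 3 comparisons, and that of all genes was -0.01, 0.03 and 0.02. For the members it was 1.44, 1.65 and 0.21 with library sizes alone and 1.70, 2.12 and 0.42 with limma on log2(TPM + 1). Actc1 did not pass the test in any comparison. In a whole heart, fewer cardiomyocytes and less RNA per cardiomyocyte cannot be told apart.

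**Figure D1:**
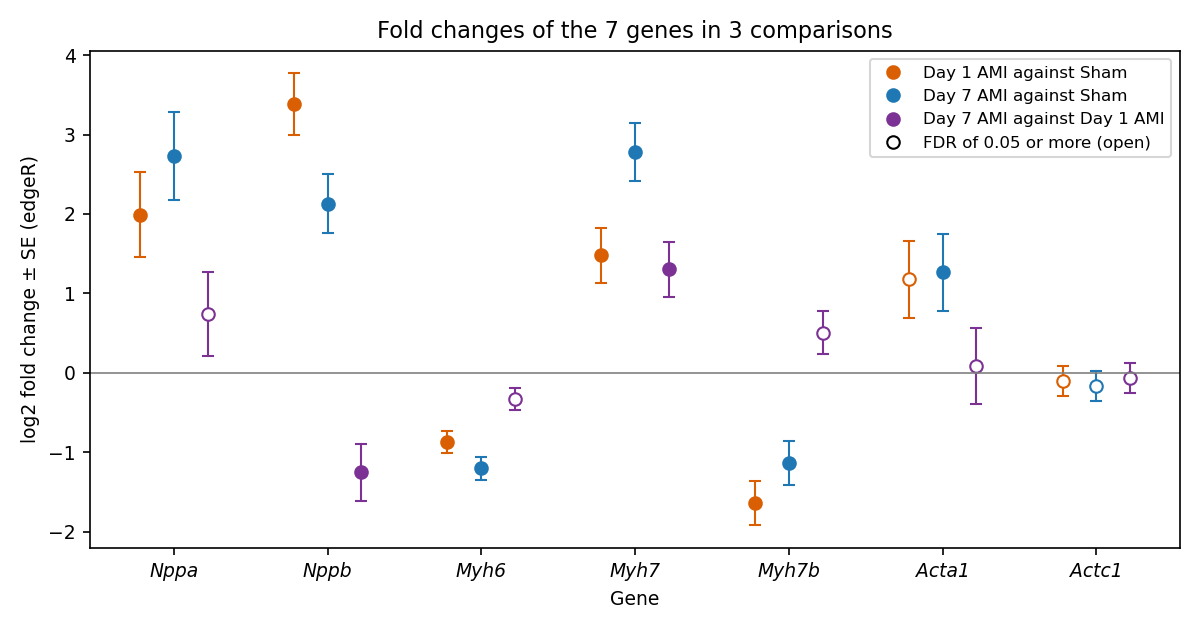
Log2 fold changes of the 7 members from edgeR, with standard errors as bars, in the 3 comparisons; open symbols did not reach an FDR below 0.05. Nppb had the highest value on Day 1 (3.38), on Day 7 Myh7 (2.78) and Nppa (2.73) were close with Nppa the higher under limma on TPM, and the values of Actc1, which stayed near 0, turned positive with library sizes alone and with limma on TPM.

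Nppb encodes B-type natriuretic peptide and lies on chromosome 4 (chr4:147985788-147987205, plus strand, GRCm38). Its level was 78.4, 59.1, 174 and 155 TPM in Sham hearts 1 to 4. In the same order it was 1781, 2164, 1401 and 664 TPM in the Day 1 AMI hearts and 991, 589, 744 and 640.5 TPM in the Day 7 AMI hearts. Every AMI heart lay above every Sham heart, and the AMI groups overlapped through Day 1 AMI heart 4. Nppb rose 10.4-fold on Day 1 (log2 fold change 3.38, SE 0.39, edgeR FDR 4.14e-05) and was still 4.37-fold above Sham on Day 7 (2.13, SE 0.37, edgeR FDR 0.000211; up to 2.78 with limma on TPM). From Day 1 to Day 7 it fell 2.38-fold (log2 fold change -1.25, SE 0.36, edgeR FDR 0.0110). The last of these was lost with limma on TPM (-0.92, adjusted p = 0.0643 and 0.0671 with the pseudocounts of 1 and 0.1; range over all settings 0.00154 to 0.0671). Its place among all genes by mean TPM was 809 in Sham, 81 on Day 1 and 169 on Day 7.

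Nppa encodes atrial natriuretic peptide and lies 13516 bases downstream of Nppb, at chr4:148000722-148002079 on the same strand. Its level was 93.3, 222, 296 and 988 TPM in Sham hearts 1 to 4. The Day 1 AMI hearts held 2521, 2501, 1958 and 954 TPM, and the Day 7 AMI hearts 3254, 4359, 4613 and 3288 TPM. Sham heart 4 stood above Day 1 AMI heart 4, so Sham and Day 1 overlapped, whereas all Day 7 hearts lay above all others in TPM. The Sham mean was 399.7 TPM with an SD of 401.1 (n = 4), a spread as large as the mean. Nppa rose 3.98-fold on Day 1 (log2 fold change 1.99, SE 0.54, edgeR FDR 0.00923) and 6.65-fold on Day 7 (2.73, SE 0.56, edgeR FDR 0.000710). Sham heart 4 weighed on both values: without it the log2 fold changes were 3.02 (edgeR FDR 0.000200) and 3.75 (edgeR FDR 6.79e-06). The setting did so too, with values of up to 2.73 and 3.78 under limma on TPM. The difference between Day 7 and Day 1 was 0.74 on the log2 scale (SE 0.52, edgeR FDR 0.262) and did not pass, although it did in a model of these groups alone (0.73, FDR 0.0471; range over all settings 0.0471 to 0.420).

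**Figure D2:**
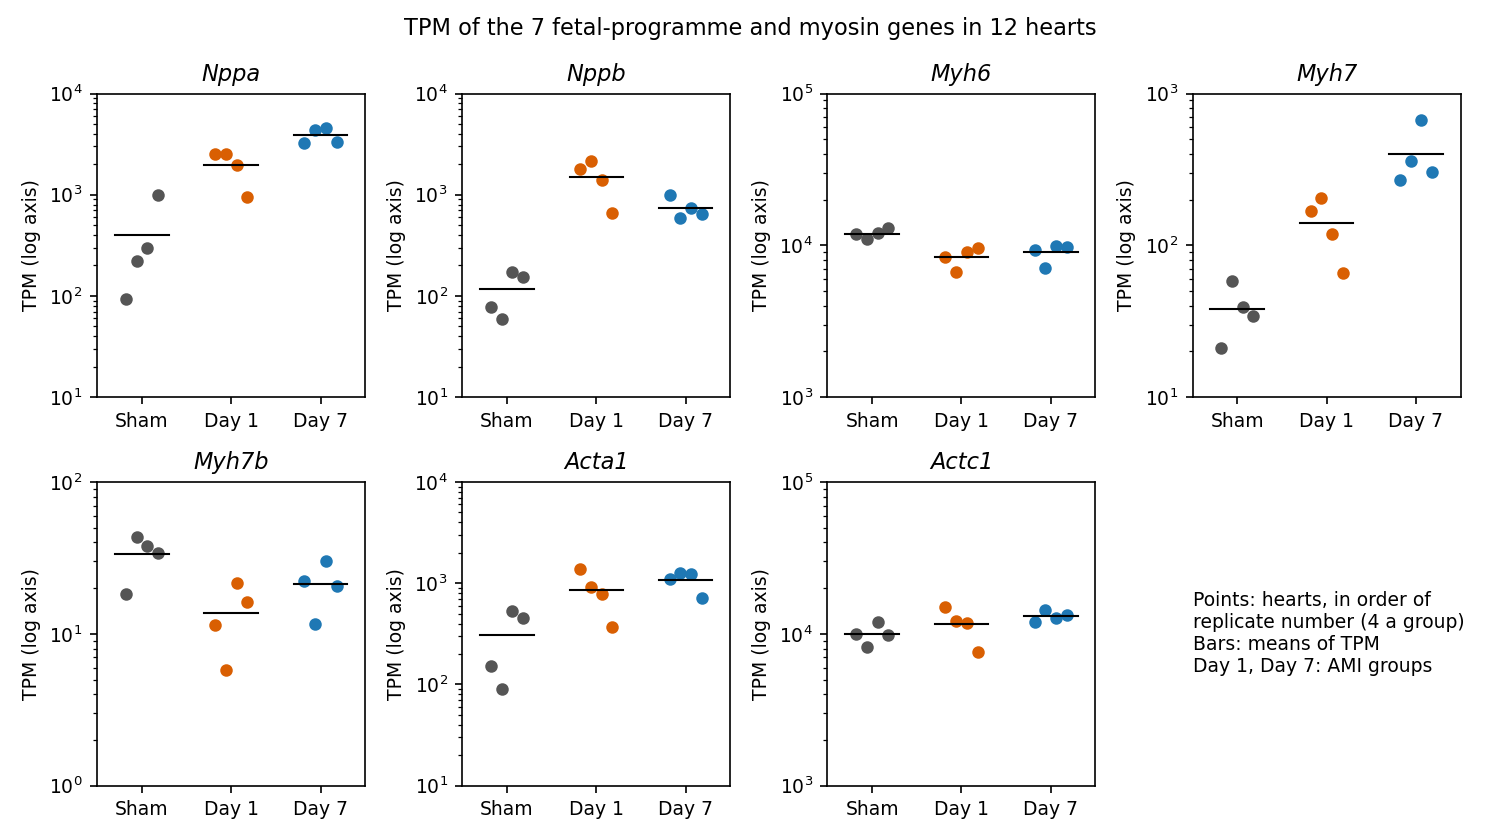
TPM of the 7 members in each of the 12 hearts on a log axis, with bars at the group means. The highest group mean was that of Day 1 for Nppb (1502 TPM) and that of Day 7 for Nppa (3879 TPM). Between the days, the difference of Nppa did not pass in edgeR, and that of Nppb was lost with limma on TPM. Myh6 and Actc1 remained between 6696 and 15052 TPM in every heart.

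Because the atria make Nppa in the adult, a list of 8 genes with higher expression in atria than in ventricles was read beside it. The summed TPM of that list was 135, 308, 125 and 645 in Sham hearts 1 to 4, 467, 404, 394 and 326 in the Day 1 AMI hearts, and 433, 298, 242 and 197 in the Day 7 AMI hearts. Sham heart 4 was the highest of all 12 hearts for the list, as it was the highest Sham heart for Nppa. The most abundant gene of the list was Myl7, the atrial myosin light chain, with 38.1, 118, 38.5 and 288 TPM in the Sham hearts. On Day 1 none of the 8 genes rose and 3 fell, but only 1 fell with library sizes alone and none of the 7 tested with limma on TPM. On Day 7 Dkk3 rose (log2 fold change 1.48) and 3 genes fell (3 with library sizes alone and 2 with limma). Among them was Bmp10, a growth factor of the atria, with 1387 counts in Sham heart 4 and 51, 226 and 2 in the other Sham hearts; without Sham heart 4 its log2 fold change went from -5.28 to -3.03 (edgeR FDR 0.0381). From Day 1 to Day 7, 1 gene of the list rose and 2 fell. Nppa was highest in the Day 7 hearts. Their atrial list (197 to 433 TPM) lay within the Sham range, but Sham heart 4 alone set the upper end of that range. Day 7 AMI heart 1 lay above the other Sham hearts. The part of atrial tissue in the values of Nppa was not tested.

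**Figure D3:**
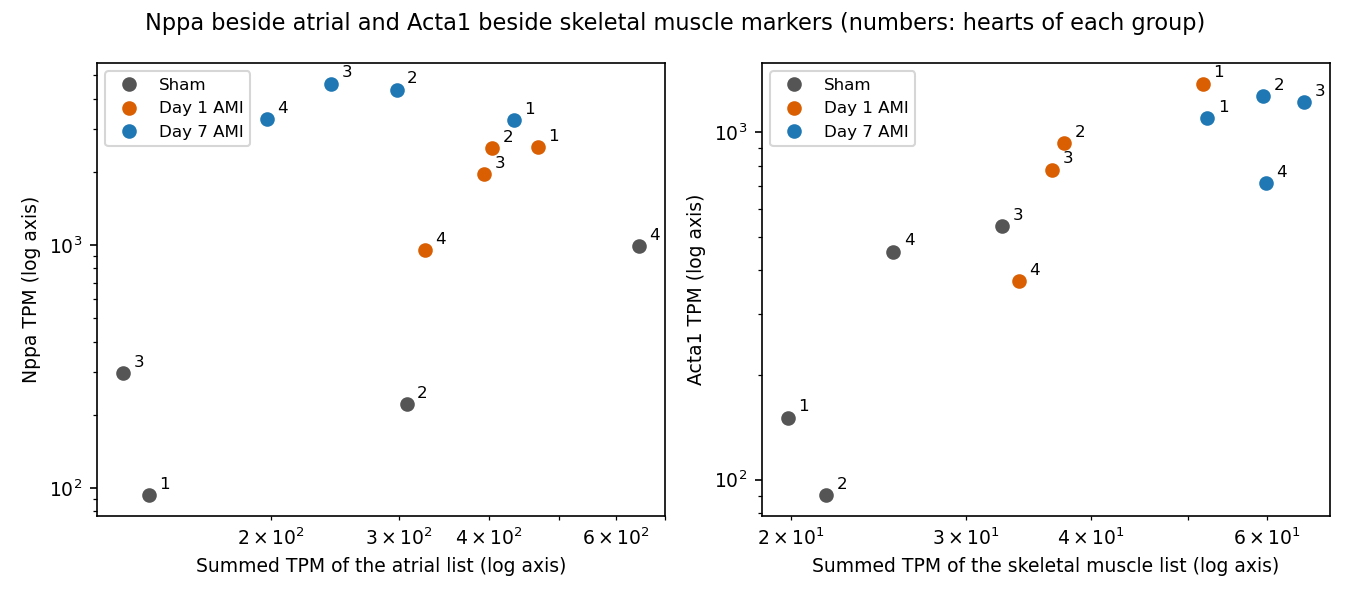
Level of Nppa against the summed TPM of the atrial list, and of Acta1 against that of the skeletal muscle list, in 12 hearts on log axes; numbers are the hearts of each group. Sham heart 4, with 645 TPM for the atrial list and 988 TPM of Nppa, stands apart from the other Sham hearts, and the skeletal muscle list lay between 19.9 and 65.4 TPM.

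A second transcript lies across Nppa. Gm13054, annotated as antisense, shares 532 exon bases with it, which is 64.9% of its own exons and 61.5% of those of Nppa. Its mean level was 1.41 TPM in Sham, 7.89 TPM on Day 1 and 13.9 TPM on Day 7, and it rose on both days (log2 fold change 2.19, edgeR FDR 0.00488, and 2.78, edgeR FDR 0.000413). It held 36 counts in Sham heart 4 against 3, 10 and 10 in the other Sham hearts, and without that heart its values were 3.14 and 3.73. Whether the counting used the strand is not given in the sources used here, so reads of the bases shared by Nppa and Gm13054 cannot be told apart.

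The share of Nppb in the summed TPM of both peptides was 29.3% ± 14.6 in Sham, 42.6% ± 2.52 on Day 1 and 16.4% ± 4.99 on Day 7 (SD, n = 4 hearts each). The 4 Day 1 hearts lay between 41.0% and 46.4%, above all Day 7 hearts, which ran from 11.9% to 23.3%. The Sham hearts spread from 13.5% to 45.7% and overlapped with both AMI groups. The log2 ratio of Nppb to Nppa differed by -1.97 between Day 7 and Day 1 (SE 0.26), a 3.92-fold lower ratio, with an exact two-sided permutation p of 0.0286. That is the smallest p that 4 hearts against 4 can give, and after adjustment over 9 ratio tests it was 0.0514 and did not pass. The ratio of counts gave the same difference and the same exact permutation p, adjusted to 0.0429. Against Sham the log2 ratio differed by 0.97 on Day 1 (exact p = 0.143, adjusted 0.184) and by -0.998 on Day 7 (exact p = 0.200, adjusted 0.225).

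Genes that process, bind or break down the peptides were followed as a list of 10, of which 9 passed the filter; Nppc, the gene of C-type natriuretic peptide, did not. On Day 1, 1 gene rose and 5 fell, on Day 7, 2 rose and 3 fell, and between the days 3 rose and 2 fell. With library sizes alone these counts were 2 and 3, 4 and 3, and 3 and 1, and with limma on TPM 2 and 1, 5 and 2, and 3 and 1. The medians of the list were -0.24, -0.18 and -0.07 and turned positive with library sizes alone and with limma on TPM. Npr3, the clearance receptor, fell by 0.69 on the log2 scale on Day 1 (edgeR FDR 0.00360) and by 1.09 on Day 7 (edgeR FDR 5.06e-05). Mme, which encodes the peptide-degrading enzyme neprilysin, fell by 0.98 and by 1.05 on the log2 scale (edgeR FDR 0.000643 and 0.000149). With limma on TPM the Day 1 fall of Npr3 and both falls of Mme no longer passed. Corin, the protease that activates atrial natriuretic peptide, fell by 1.02 on Day 7 (edgeR FDR 3.09e-07), while its smaller value on Day 1 (-0.24, edgeR FDR 0.0296) changed sign with library sizes alone and with limma on TPM. Pcsk6, which activates corin, fell by 0.98 on Day 1 (edgeR FDR 0.000109) and was at 0.02 on Day 7 (edgeR FDR 0.914). Npr1, the receptor of both peptides, rose by 0.34 on Day 7 (edgeR FDR 0.0169; up to 0.0590 with a heart left out), and Prkg1, the kinase that acts downstream of it, rose on both days (0.59 and 0.53, edgeR FDR 0.00856 and 0.0107).

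The myosin heavy chain genes Myh6 and Myh7 are neighbours on chromosome 14, 3756 bases apart on the minus strand (chr14:54941921-54966927 and chr14:54970684-54994626, GRCm38), and Myh7b lies on chromosome 2 (chr2:155611212-155634307, plus strand). Each holds a microRNA of the miR-208 and miR-499 family in an intron. Their mature RefSeq sequences are shown, 5′ to 3′ and with the seed (bases 2 to 8) in capitals, because their hosts are the myosin genes that the results turn on.
miR-208a-3p in Myh6: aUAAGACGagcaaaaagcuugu
miR-208b-3p in Myh7: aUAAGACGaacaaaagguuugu
miR-499-5p in Myh7b: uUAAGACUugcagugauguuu
The first and second share the seed UAAGACG, and that of miR-499-5p is UAAGACU. They lie at chr14:54949072-54949093 and chr14:54975710-54975731 on the minus strand and at chr2:155622893-155622913 on the plus strand (GRCm38.p6). Their gene entries held 0 counts in all 12 libraries, and the mature microRNAs were not measured here.

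Myh6, the fast alpha-myosin heavy chain, was among the most abundant transcripts of the heart, with place 11 of 53801 in Sham, 15 on Day 1 and 10 on Day 7 by mean TPM. Its level was 11789, 10978, 12074 and 13011 TPM in Sham hearts 1 to 4. The Day 1 AMI hearts held 8317, 6696, 9037 and 9626 TPM, and the Day 7 AMI hearts 9359, 7081, 9966 and 9709 TPM. Every AMI heart lay below every Sham heart, and the AMI groups overlapped. Myh6 fell by 0.87 on the log2 scale on Day 1 (SE 0.14, edgeR FDR 0.000296), which is 1.83-fold and below the fold threshold of a DEG. On Day 7 it fell by 1.20 (SE 0.14, edgeR FDR 5.89e-06), 2.30-fold. The size depended on the setting, and over all settings it ran from -0.89 to -0.52 on Day 1 and from -1.23 to -0.42 on Day 7. Between the days the difference was -0.33 (SE 0.14, edgeR FDR 0.0627) and did not pass. It passed without Day 1 AMI heart 2 (-0.45, edgeR FDR 0.00724) and without Day 7 AMI heart 3 (-0.40, edgeR FDR 0.0414). It also passed with DESeq2 (-0.35, FDR 0.0188) and with the replicate number as a block. With limma on TPM it was of the opposite sign, up to 0.10.

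Myh7, the slow beta-myosin heavy chain, was at 21.1, 58.4, 39.1 and 34.2 TPM in Sham hearts 1 to 4. It was at 167, 207, 119 and 66.2 TPM in the Day 1 AMI hearts and at 269.8, 360.0, 668 and 304 TPM in the Day 7 AMI hearts. In TPM the 3 groups did not overlap, with Day 7 AMI heart 3 the highest and Day 1 AMI heart 4 the lowest of the infarcted hearts; in normalised counts Sham and Day 1 overlapped. Myh7 rose 2.79-fold on Day 1 (log2 fold change 1.48, SE 0.35, edgeR FDR 0.00405) and 6.89-fold on Day 7 (2.78, SE 0.37, edgeR FDR 1.72e-05; up to 3.38 with limma on TPM). It was also 2.47-fold higher on Day 7 than on Day 1 (1.31, SE 0.35, edgeR FDR 0.00690). Without Day 7 AMI heart 3 that value was 0.93, below the fold threshold of a DEG but still past the FDR threshold. By mean TPM the place of Myh7 went from 2329 in Sham to 791 on Day 1 and 312 on Day 7.

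Myh6 and Myh7 are similar in sequence: 939 stretches of 75 bases occurred in both transcripts, 15.5% of those of Myh6 and 15.3% of those of Myh7. The TPM came from RSEM, which apportions reads with several possible origins. How the count matrix treated them is not given in the sources used here, so the counts of Myh7, the rarer of both by far, are uncertain where reads are shared. No stretch of 75 bases was shared between Myh7b and either of them. Mhrt, annotated as antisense, shares 484 exon bases with Myh7, 39.9% of its own exons and 5.62% of those of Myh7. It had a mean of 95.2, 60.1 and 74.9 TPM in the 3 groups and fell on both days (log2 fold change -0.98, edgeR FDR 0.000105, and -0.86, edgeR FDR 6.96e-05), in the opposite direction to Myh7. On Day 7 the fall of Mhrt was lost with limma on TPM (adjusted p up to 0.0603). Without knowledge of the strand used in counting, reads of the shared bases cannot be told apart.

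The balance of the pair was read within each heart. Myh7 made up 0.179%, 0.529%, 0.323% and 0.262% of the summed TPM of Myh6 and Myh7 in Sham hearts 1 to 4. In the Day 1 AMI hearts the share was 1.97%, 2.99%, 1.30% and 0.683%, and in the Day 7 AMI hearts 2.80%, 4.84%, 6.28% and 3.04%. Every infarcted heart lay above every Sham heart, and Day 1 and Day 7 overlapped through Day 1 AMI heart 2. The group means were 0.323% ± 0.149, 1.74% ± 0.988 and 4.24% ± 1.64 (SD, n = 4 hearts each), so alpha-myosin remained the major transcript in all 12 hearts. The log2 ratio of Myh7 to Myh6 was 2.36 higher on Day 1 than in Sham (SE 0.57), or 5.13-fold, and 3.80 higher on Day 7 (SE 0.44), or 14-fold. Each comparison had the smallest exact permutation p possible with 4 hearts against 4 (0.0286), and each was 0.0514 after adjustment over 9 ratio tests and did not pass. From Day 1 to Day 7 the log2 ratio differed by 1.44 (SE 0.55, exact permutation p = 0.0571, adjusted 0.0857). With ratios of counts in place of TPM the log2 differences were 2.33, 3.95 and 1.63, each with an exact permutation p of 0.0286. The adjusted p of all 3 was then 0.0429, as 6 of the 9 ratio tests reached the smallest p in place of 5.

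**Figure D4:**
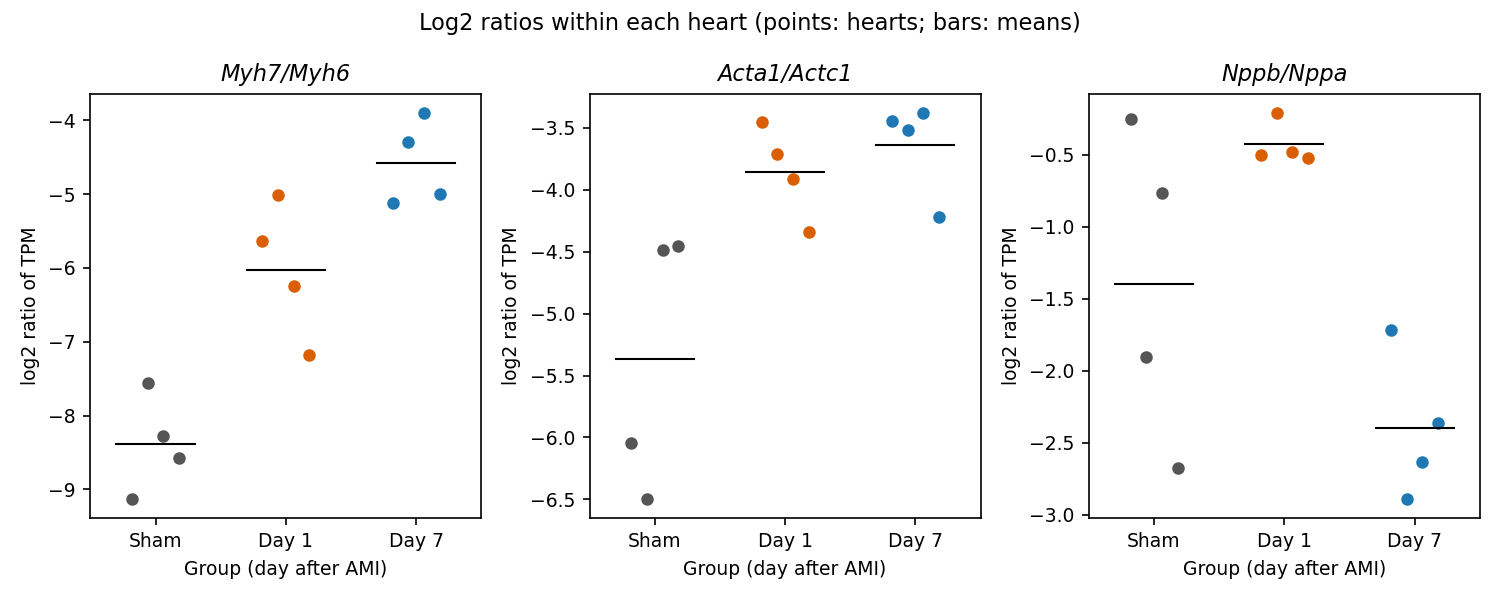
Log2 ratios of TPM within each heart for Myh7 to Myh6, Acta1 to Actc1 and Nppb to Nppa, with bars at the group means. All 8 infarcted hearts lie above the 4 Sham hearts for Myh7 to Myh6 and for Acta1 to Actc1, and the Day 7 hearts lie below the Day 1 hearts for Nppb to Nppa.

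Myh7b encodes a further slow-type myosin of heart and muscle. It was at 18.4, 43.6, 37.7 and 34.0 TPM in Sham hearts 1 to 4, at 11.4, 5.78, 21.8 and 16.1 TPM in the Day 1 AMI hearts and at 22.1, 11.5, 30.3 and 20.8 TPM in the Day 7 AMI hearts. Sham heart 1 was low, so that in TPM it overlapped with both AMI groups, whereas in normalised counts the Sham hearts lay above all others. Myh7b fell by 1.64 on the log2 scale on Day 1 (SE 0.28, edgeR FDR 0.000478), which is 3.11-fold. It fell by 1.13 on Day 7 (SE 0.28, edgeR FDR 0.00275), which is 2.19-fold and was lost with limma on TPM (-0.64, adjusted p = 0.135, and -0.67, adjusted p = 0.145; range over all settings 0.000246 to 0.145). Between the days the difference was 0.51 (SE 0.28, edgeR FDR 0.146), and it passed without Day 1 AMI heart 3 (0.78, edgeR FDR 0.0317). Against Sham, Myh7 and Myh7b, both slow-type myosins, moved in opposite directions.

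The other striated muscle myosin heavy chains of the list (Myh1, Myh2, Myh3, Myh4, Myh8, Myh13 and Myh15) were near 0, and 0 of 7 passed the filter on low counts. Their summed mean was 0.133 TPM in Sham, 0.0275 TPM on Day 1 and 0.570 TPM on Day 7, where Day 7 AMI heart 2 held 1.47 TPM and the others 0.13, 0.17 and 0.51 TPM. Of 17 myosin light chain, troponin and tropomyosin genes 16 were tested, and 3 rose and 4 fell on Day 1, 4 rose and 8 fell on Day 7, and 2 rose and 7 fell between the days. The counts were 4 and 2, 4 and 5, and 2 and 6 with library sizes alone, and with limma on TPM 4 and 1, 5 and 5, and 3 and 4. Their medians were -0.13, -0.52 and -0.43, and with library sizes alone the first was positive and with limma on TPM the first and second were. Tpm3, a tropomyosin of slow muscle and of many other cells, rose on both days (log2 fold change 1.16 and 1.32, edgeR FDR 1.50e-05 and 5.22e-07). Myl1, a fast skeletal and fetal light chain, rose on Day 7 (1.13, edgeR FDR 2.29e-05). The adult cardiac genes Myl2 (-0.66 and -1.37), Tnni3 (-0.70 and -1.35) and Tnnt2 (-0.46 and -1.09) fell on both days (edgeR FDR at most 0.00197), though on Day 1 the fall of Myl2 was lost with limma on TPM and that of Tnnt2 with limma and with library sizes alone. Tnnt1, the slow skeletal troponin T, fell by 1.28 on Day 7 (edgeR FDR 0.000127). Tnni1, the troponin I of the fetal heart, was at a mean of 0.660 TPM in Sham and passed the test in no comparison (edgeR FDR at least 0.189).

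Acta1 encodes skeletal alpha-actin and lies at chr8:123891769-123894751 on the minus strand (GRCm38). Its level was 151, 90.2, 537 and 453 TPM in Sham hearts 1 to 4. The Day 1 AMI hearts held 1377, 927, 779.6 and 372 TPM, and the Day 7 AMI hearts 1095, 1265, 1221 and 711 TPM. Sham hearts 1 and 2 were well below Sham hearts 3 and 4, and Day 1 AMI heart 4 lay within the Sham range. In TPM all Day 7 hearts lay above all Sham hearts, whereas in normalised counts they overlapped. On Day 1 the log2 fold change was 1.18 (SE 0.49, edgeR FDR 0.0663) and did not pass. It passed without Sham heart 3 (1.55, edgeR FDR 0.0313) and without Day 1 AMI heart 4 (1.44, edgeR FDR 0.0268), with library sizes alone (1.44, FDR 0.0248), with no filter (1.19, FDR 0.0263) and with limma on TPM (1.70, adjusted p = 0.0159 and 0.0158; range over all settings 0.0158 to 0.108). On Day 7 Acta1 rose 2.4-fold (1.26, SE 0.49, edgeR FDR 0.0377). That call was lost without Sham heart 1 (1.05, edgeR FDR 0.105), Sham heart 2 (0.95, edgeR FDR 0.0696), or Day 7 AMI heart 1 (1.26, edgeR FDR 0.0600), 2 (1.17, edgeR FDR 0.0808) or 3 (1.18, edgeR FDR 0.0740), and with the replicate number as a block (1.30, edgeR FDR 0.0579). The value was larger with library sizes alone (1.65, FDR 0.00868) and with limma on log2(TPM + 1) (2.12, adjusted p = 0.00258). Between the days the difference was 0.09 (SE 0.48, edgeR FDR 0.897).

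Actc1, the cardiac alpha-actin, lies at chr2:114047282-114053548 on the minus strand. It was at 9950, 8130, 12042 and 9899 TPM in Sham hearts 1 to 4, at 15052, 12121, 11751 and 7549 TPM in the Day 1 AMI hearts and at 11891, 14460, 12691 and 13250 TPM in the Day 7 AMI hearts. The groups overlapped, and by mean TPM its place among all genes was 13, 8 and 7. It did not pass the test in any comparison (edgeR log2 fold change -0.10, FDR 0.691, then -0.17, FDR 0.458, and -0.07, FDR 0.793). With library sizes alone its values were 0.17, 0.23 and 0.06, and with limma on log2(TPM + 1) they were 0.19, 0.40 and 0.21, so their sign depended on scaling. A test that is not passed does not show that Actc1 was the same in the groups.

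Acta1 made up 1.49%, 1.10%, 4.27% and 4.38% of the summed TPM of Acta1 and Actc1 in Sham hearts 1 to 4. The share was 8.38%, 7.11%, 6.22% and 4.70% in the Day 1 AMI hearts and 8.43%, 8.05%, 8.78% and 5.09% in the Day 7 AMI hearts. All infarcted hearts lay above all Sham hearts, though Sham hearts 3 and 4 and the fourth heart of each AMI group were close together. The log2 ratio of Acta1 to Actc1 was 1.52 higher on Day 1 (SE 0.56), or 2.86-fold, and 1.73 higher on Day 7 (SE 0.56), or 3.32-fold. In both comparisons the exact permutation p was 0.0286, and 0.0514 after adjustment over 9 ratio tests, which did not pass. With ratios of counts the log2 differences were 1.51 and 1.73, with the same exact permutation p, adjusted to 0.0429. Day 7 and Day 1 differed by 0.21 (SE 0.27, exact permutation p = 0.429, adjusted 0.429). The transcripts of Acta1 and Actc1 shared 0 stretches of 75 bases, unlike those of Myh6 and Myh7.

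Acta1 is the main actin of skeletal muscle, so a list of 13 skeletal muscle genes was read beside it. Its summed TPM was 19.9, 21.7, 32.6 and 25.3 in Sham hearts 1 to 4, 51.8, 37.6, 36.6 and 33.9 in the Day 1 AMI hearts, and 52.3, 59.6, 65.4 and 59.9 in the Day 7 AMI hearts. The most abundant gene was Casq1, a calcium store protein that the heart also holds at a low level, with a mean of 12.5 TPM in Sham. The list was higher in the infarcted hearts. Its genes Myh1, Myh2, Myh4, Actn3, Tnnc2 and Myog were near 0 and are the 6 that did not pass the filter. Day 7 AMI heart 2, which held the most Acta1 of its group in TPM, had the most counts of all 12 hearts for Myh1 (38), Myh2 (26), Myh4 (6), Mylpf (33), Tnnt3 (61), Actn3 (22), Pvalb (16) and Myog (4). It did not for Tnni2, Tnnc2, Atp2a1, Casq1 and Mybpc2. In counts its Tnni2 (17) was below every Sham heart, and its Casq1 (628) and Mybpc2 (915) were the lowest of its group. These counts were not scaled, and its library was the smallest of the 12 (23204551 counts). In TPM its Casq1 (25.9) lay above that of Day 7 AMI heart 1 (21.4), while its Mybpc2 (16.6) was still the lowest of its group. Of the 7 genes tested, 2 rose and 0 fell on Day 1, 2 rose and 2 fell on Day 7, and 2 rose and 1 fell between the days, and with library sizes alone 3, 3 and 2 rose and 0 fell. With limma on TPM, of 5 genes tested, 3 rose in each comparison and 1 fell between the days. Those that rose on both days were Tnnt3 (log2 fold change 1.78 and 2.79) and Mybpc2 (0.75 and 1.43), and Tnnt3 never exceeded 61 counts. The part of skeletal muscle in the values of Acta1 was not tested.

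Of the 4 remaining actin genes, 2 rose on Day 1, 4 rose on Day 7 and 1 rose between the days, and none fell. Actb and Actg1, the cytoplasmic actins, rose on both days (Actb 1.39 and 1.38, Actg1 1.04 and 1.34, edgeR FDR at most 0.00137). Actg2 and Acta2, the smooth muscle actins, rose on Day 7 (3.81, edgeR FDR 0.00130, and 0.92, edgeR FDR 0.0394). Day 7 AMI heart 1 weighed on both, with 64.0 TPM of Actg2 against 12.5, 2.86 and 3.92 in the others and 570 TPM of Acta2 against 261, 190 and 222. Without it the values were 2.17 (edgeR FDR 0.00174) for Actg2 and 0.46 (edgeR FDR 0.214) for Acta2, which no longer passed. The call of Acta2 was also lost without Sham heart 2 (0.95, edgeR FDR 0.0599) or Sham heart 4 (0.68, edgeR FDR 0.0987). Together these 4 genes had a mean of 504 TPM in Sham, 1241 TPM on Day 1 and 1658 TPM on Day 7, well below Actc1. The rises passed with library sizes alone and with limma on TPM as well, that of Actg2 on Day 7 being 2.21 with limma on log2(TPM + 1).

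The members were also read against cardiomyocyte genes. A list of 10 cardiomyocyte genes had a summed mean of 31883 TPM in Sham, 27265 TPM on Day 1 and 23770 TPM on Day 7, with Tnni3, cardiac troponin I, the most abundant. In edgeR 0 of them rose and 7 fell on Day 1, 0 rose and 9 fell on Day 7, and 1 rose and 6 fell between the days; with library sizes alone, 1 rose and 3 fell on Day 1, 0 rose and 6 fell on Day 7, and 1 rose and 4 fell between the days. With limma on TPM 1 rose and 3 fell on Day 1, 0 rose and 4 fell on Day 7, and 1 rose and 2 fell between the days. Of those that fell, Ryr2 on Day 1 and Actn2 and Tnnc1 on Day 7 changed sign with limma on TPM, and Tnnc1 also with library sizes alone. The mean log2 TPM of the list differed by -0.14 (SE 0.08), -0.24 (SE 0.09) and -0.09 (SE 0.07) in the 3 comparisons. Relative to that mean, within each heart, Nppb was 3.85 higher on Day 1 and 3.02 higher on Day 7 on the log2 scale, and Nppa was 2.88 and 4.02 higher. Myh7 was 1.99 and 3.62 higher, and Acta1 was 1.85 and 2.36 higher. Actc1 was 0.33 and 0.63 higher. Myh6 differed by -0.37 and -0.18 and Myh7b by -1.22 and -0.43. On Day 7 the value of Myh6 was -0.43 with CPM and -0.41 with the median of the list. These values of Myh6 were smaller in size than its edgeR log2 fold changes from counts. The planned exact permutation tests of the TPM differences did not pass after adjustment over all 21, so the differences are given as descriptions. The ventricular list of 4 genes, led by Myl2, had 0 genes that rose on either day, with 2 that fell on Day 1, 3 on Day 7 (Irx4 with a positive value under library sizes alone and limma on TPM) and 3 between the days. On Day 1, 1 gene rose and 1 fell with library sizes alone, and 1 rose and 0 fell with limma on TPM; on Day 7, 2 fell under both, and between the days 2 and 1 fell.

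Markers of other cell types of the heart were followed over the same days. The summed TPM of 7 fibroblast genes was between 478 and 583 in the Sham hearts, between 676 and 909 in the Day 1 AMI hearts and between 3584 and 6487 in the Day 7 AMI hearts. Their most abundant gene on Day 7 was Col3a1, a fibrillar collagen, with a mean of 1606 TPM. Of the 7 genes 5 rose and 1 fell on Day 1, all 7 rose on Day 7, and 6 rose between the days. Leukocyte genes, led by Lyz2, summed to between 146 and 239 TPM in Sham, between 384 and 581 TPM on Day 1 and between 728 and 1137 TPM on Day 7, and 6 of 6 rose on each day. Between the days 4 of them rose and 1 fell. Of 7 smooth muscle genes 1 rose and 1 fell on Day 1, 5 rose on Day 7 and 4 rose between the days; the Day 1 fall was lost with library sizes alone and with limma. Of 4 endothelial genes 1 fell on Day 1, 3 rose on Day 7 and 4 rose between the days, the Day 1 fall again being lost with both. Of 5 erythroid genes 3 fell on Day 1 and 3 on Day 7, but with library sizes alone 1 and 0 fell and with limma on TPM none did. Sham heart 2 held 15170 TPM of them against 1617 to 3635 TPM in the other Sham hearts. The part of these cells in the changes of the 7 members was not tested.

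Metabolic and ion channel genes of the fetal and the adult heart were compared next. Of 8 genes with higher expression in the fetal heart, 3 rose and 2 fell on Day 1, 2 rose and 2 fell on Day 7, and 2 rose and 3 fell between the days. They were 4 and 1, 2 and 0, and 3 and 3 with library sizes alone, and with limma on TPM 4 and 1, 4 and 0, and 3 and 3. Their median log2 fold change was 0.19 on Day 1 and -0.19 on Day 7, and the latter was positive with library sizes alone and with limma on TPM. Slc2a1, the glucose transporter GLUT1 of the fetal heart, rose on Day 1 (1.59, edgeR FDR 0.000321) and fell by 1.53 from Day 1 to Day 7 (edgeR FDR 0.000256). Eno1, a glycolytic enolase, rose on both days (0.61 and 0.41, edgeR FDR 0.00362 and 0.0219). Hk1, a hexokinase, rose on Day 1 (0.45, edgeR FDR 0.00675), and Ckb, the brain-type creatine kinase, rose on Day 7 (0.90, edgeR FDR 3.11e-05). Hcn2, a pacemaker channel, fell by 1.27 on Day 1 (edgeR FDR 0.000442) and by 0.56 on Day 7 (edgeR FDR 0.0328; up to 0.134 with a heart left out), and the Day 7 value turned positive with limma on TPM.

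Of 8 genes with higher expression in the adult heart, 0 rose and 7 fell on Day 1, 0 rose and 8 fell on Day 7, and 0 rose and 7 fell between the days. The medians were -0.68, -1.15 and -0.37, beside -0.01, 0.03 and 0.02 for all genes. For the cardiomyocyte list the medians were -0.44, -0.67 and -0.34, and the difference between these lists was not tested. On Day 7 all 8 also fell with library sizes alone and with limma on log2(TPM + 1). On Day 1, 7 fell with library sizes alone and 5 with limma on log2(TPM + 1), and 1 gene, Hk2, rose under both. Between the days 4 fell with library sizes alone, and with limma on log2(TPM + 1) 1 rose and 2 fell. Kcnip2, a subunit of the potassium channel that shapes early repolarisation, fell by 2.10 on Day 1 and by 1.65 on Day 7 (edgeR FDR 3.21e-05 and 3.01e-05). Atp2a2, the calcium pump of the sarcoplasmic reticulum, fell by 0.64 and by 1.32 (edgeR FDR 0.00257 and 2.79e-06), the first lost with limma on TPM. Slc2a4, the insulin-responsive glucose transporter GLUT4, fell by 0.93 and by 1.27 (edgeR FDR 6.66e-05 and 8.43e-07), and Ckm, the muscle creatine kinase, fell by 0.87 and by 1.17 (edgeR FDR 4.24e-05 and 4.93e-07). Cpt1b, which admits fatty acids to mitochondria, fell by 0.68 and by 1.07 (edgeR FDR 0.000166 and 9.36e-07).

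**Figure D5:**
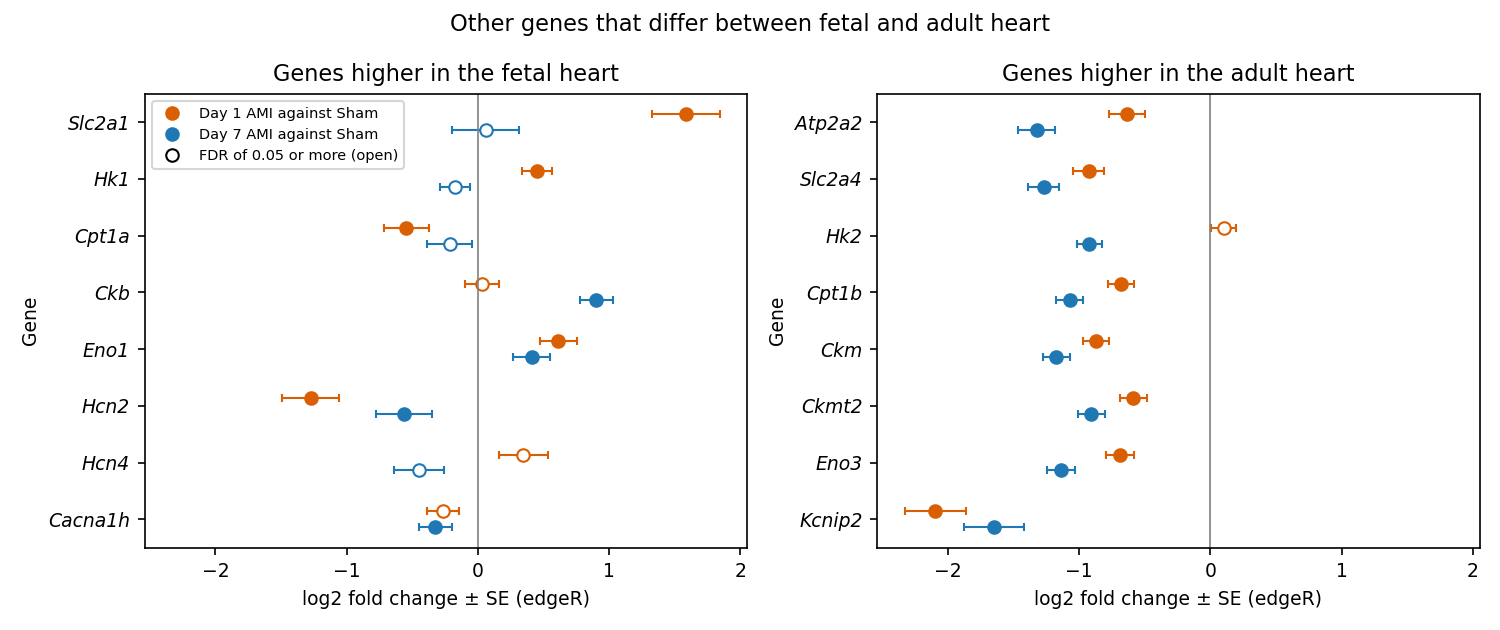
Log2 fold changes from edgeR, with standard errors as bars, of 8 genes with higher expression in the fetal heart and 8 with higher expression in the adult heart, for Day 1 AMI and Day 7 AMI against Sham. The adult genes lie below 0 save Hk2 on Day 1 (0.10), which rose with other scalings, and the fetal genes lie on both sides, with Hcn2 and Cacna1h on Day 7 positive under limma on TPM.

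Regulators of the programme were read as a list of 24 genes, all of which passed the filter. On Day 1, 4 rose and 7 fell, on Day 7, 3 rose and 11 fell, and between the days 1 rose and 12 fell, but with library sizes alone these counts were 10 and 1, 9 and 3, and 3 and 8, and with limma on TPM 10 and 0, 11 and 2, and 5 and 2, so the direction of the list depended on scaling. Rcan1, a target and inhibitor of the phosphatase calcineurin, rose on both days (1.51 and 1.24, edgeR FDR 0.000135 and 0.000180). Dio2, which activates thyroid hormone, rose on Day 7 (2.85, edgeR FDR 1.70e-05), and Dio3, which inactivates it, rose on both days (3.56 and 4.56, edgeR FDR 0.00135 and 3.95e-05) but never exceeded 40 counts. The thyroid hormone receptor genes Thra (-0.43 and -0.53) and Thrb (-0.46 and -0.96) fell on both days (edgeR FDR at most 0.0210). Both falls of Thra and the Day 1 fall of Thrb were lost with library sizes alone and with limma on TPM, where the Day 7 value of Thra changed sign. Sox6, a repressor in muscle development, fell by 0.50 and by 0.86 (edgeR FDR 0.00503 and 4.14e-05), and Tbx5, a cardiac T-box factor, fell by 0.72 and by 1.25 (edgeR FDR 0.000338 and 1.10e-06); with limma on TPM both falls of Sox6 and the Day 1 fall of Tbx5 no longer passed, and that of Sox6 on Day 1 was also lost with library sizes alone. Of the factors whose motifs were searched in the promoters, Gata4 was at 0.16 on Day 1 and -0.16 on Day 7, and Tead1 at 0.11 and -0.03, none of which passed. With limma on TPM both genes rose on both days, and with library sizes alone Gata4 rose on Day 1 and Tead1 on both. Gata6, also a GATA factor of the list, held 1367 to 1728 counts in the Sham hearts and 1345 to 2594 in the Day 1 AMI hearts. The Day 7 AMI hearts held 1119 to 1318 counts of Gata6, below every Sham heart. These counts were not scaled, but the TMM factors were higher in every Day 7 heart (1.10 to 1.17) than in every Sham heart (0.781 to 0.917). TMM scaling therefore leaves the Day 7 hearts below the Sham hearts. The edgeR test of Gata6 is not given here. In TPM Gata6 overlapped between Sham (23.8 to 28.1) and Day 7 (22.2 to 24.8). Mef2a fell by 0.32 on Day 1 (edgeR FDR 0.0174) and Mef2d by 0.26 and 0.57 (edgeR FDR 0.0183 and 3.64e-05), while Mef2c passed on neither day. These falls were lost with library sizes alone and changed sign with limma on TPM, where Mef2a and Mef2c rose on Day 7. Nkx2-5 did not pass on Day 1 (0.20, edgeR FDR 0.121) and fell by 0.51 on Day 7 (edgeR FDR 0.000596), a value that changed sign with limma on TPM. Srf was at 0.12 on Day 1 (edgeR FDR 0.517) and fell by 0.44 on Day 7 (edgeR FDR 0.0171), again with a change of sign under limma on TPM.

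The genes most like each member over the 12 hearts were found by Pearson correlation of log2 normalised counts among 12724 genes, as a description with no test, since the group levels contribute to it. They were Fjx1 (r = 0.959), Hn1 (0.953) and Tbpl1 (0.950) for Nppa, and St6galnac4 (0.984), Qsox1 (0.971) and Psat1 (0.971) for Nppb. For Myh6 they were Pgm5 (0.991), Prpf19 (0.988) and Alad (0.986), for Myh7 Tcaf2 (0.961), Tnfrsf22 (0.955) and Meox1 (0.942), and for Myh7b Asb10 (0.968), Kcnip2 (0.961) and Zc3h7b (0.957). For Acta1 they were Rfc3 (0.907), Cyr61 (0.901) and Kit (0.892), and for Actc1 Naf1 (0.899), Oser1 (0.855) and Taf4b (0.831). Within groups, as deviations from the group means, the likeness of Pgm5 to Myh6 was 0.970 and that of Meox1 to Myh7 was 0.652. Kcnip2, among the genes most like Myh7b, is also on the list of adult heart genes.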

How the data were processed

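The authors sequenced total RNA of 12 mouse hearts, extracted with a miRNeasy kit, as paired-end libraries, trimmed the reads with Cutadapt and aligned them with STAR 2.4.0j to GRCm38. They deposited raw counts per gene, used here as they stand, and TPM from RSEM, in which levels were compared between genes; the counter, its use of strand and its treatment of multiply aligned reads are not given in the sources used here. Groups were taken from the sample labels. Counts were fitted in R 4.3.3 with edgeR 4.0.16 (TMM scaling, filterByExpr, quasi-likelihood test, FDR over 15306 genes), a pipeline tested on simulated data. Ratios of TPM were compared by exact two-sided permutation tests in SciPy 1.17.1, with figures drawn in matplotlib 3.10.9 (Python 3.11.15).

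The genes named are the 7 members, the genes of the lists, and for each member the 3 genes with the highest correlation over 12 hearts; the antisense genes Gm13054 and Mhrt were added from the annotation. The members and lists were chosen with earlier results of these data known. The hearts are taken as separate animals, and no libraries of a group agreed within sampling noise (chi-square per degree of freedom at least 9.41). Alternatives were DESeq2 size factors in edgeR, library sizes alone, no filter, DESeq2 1.42.0, a model of only the groups compared, limma 3.58.1 on TPM logged after adding 1 or 0.1, the replicate number as a block, ratios of counts, 1 TPM added to both genes of a ratio, the median of the cardiomyocyte list, CPM in place of TPM, and leaving out each heart; for list genes, the other scalings, limma and leaving out each heart were chosen after seeing the data. At the depth of these libraries each member held enough counts that the spread between hearts, and not counting error, set its precision.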

Additional observations from a re-analysis of the deposited data

Results flagged for a closer look

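Of 30 groups of 4 hearts examined for the members and ratios, 3 held a heart far from the others of its group, and chance alone gives about 1 in 20 groups. For Myh6, Sham heart 2 had a log2 CPM of 15, below the other Sham hearts at 15.17, 15.19 and 15.19. For the log2 ratio of Acta1 to Actc1, Day 7 AMI heart 4 had -4.22, below the other hearts of its group at -3.52, -3.44 and -3.38. For the log2 ratio of Nppb to Nppa, Day 1 AMI heart 2 had -0.21, above the other hearts of its group at -0.52, -0.50 and -0.48.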

How the results depend on the processing

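Of 168 log2 fold changes of the members under the other settings, 145 kept their direction and their side of the FDR threshold, as did 237 of 252 with a heart left out. Another 11 and 5 changed sign, none of them past the threshold. The 11 were Actc1 in the 3 comparisons with library sizes alone (0.17, 0.23 and 0.062) and limma (0.187, 0.396 and 0.209 with either pseudocount), and Myh6 between the days with limma (0.10 with either). For the ratios, read by adjusted p, a choice made after the results were seen, 6 of 9 changed side as ratios of counts and 0 of 9 with 1 TPM added. By unadjusted exact p only Myh7 to Myh6 between the days did, as a ratio of counts. With a heart left out every ratio kept its direction, while the smallest exact p of 0.0571 left none able to pass. With library sizes alone Acta1 on Day 1 passed (1.44), with no filter likewise (1.19), and with limma on TPM at 1.70 (both pseudocounts). With limma Myh7b on Day 7 (-0.64 and -0.67) and Nppb between the days (-0.92 and -0.92) no longer passed, so 1 member in place of 2 was called between the days, by FDR and as a DEG. In limma with a pseudocount of 1 the DEGs among all genes were 1021 on Day 1 and 1018 between the days, against 1648 and 1719. Nppa between the days passed in a model of these groups alone (0.73), and Myh6 with DESeq2 (-0.35). With library sizes alone, and with limma, 4 members were DEGs on Day 7 in place of 6, as neither Myh6 nor Myh7b was one. The cause was not tested.

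After adjustment 6 ratios of counts passed where those of TPM did not: Myh7 to Myh6 at 2.33, 3.95 and 1.63 in the 3 comparisons, Acta1 to Actc1 at 1.51 and 1.73 on Day 1 and Day 7, and Nppb to Nppa at -1.97 between the days. In 5 of them the exact permutation p was 0.0286 with TPM as well, and the adjusted p went from 0.0514 to 0.0429 because Myh7 to Myh6 between the days also reached 0.0286. Relative to the cardiomyocyte list, Myh6 between the days was -0.034 with the median of the list. With CPM 13 of the differences passed after adjustment in place of 0, as 13 in place of 11 reached the smallest exact permutation p. CPM gave on Day 1 2.86 (Nppa), 3.83 (Nppb), -0.44 (Myh6), 1.88 (Myh7) and -1.27 (Myh7b). On Day 7 it gave 4.01 (Nppa), 3.01 (Nppb), -0.43 (Myh6), 3.52 (Myh7), 2.36 (Acta1) and 0.62 (Actc1), and between the days 1.15 (Nppa) and 1.64 (Myh7).

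With each heart left out in turn, Acta1 ranged from 0.85 to 1.55 on Day 1 and from 0.95 to 1.63 on Day 7. Actc1 ranged from -0.26 to 0.070 on Day 1 and from -0.24 to 0.087 between the days. Between the days Acta1 ranged from -0.18 to 0.41, Myh6 from -0.45 to -0.25, Myh7b from 0.28 to 0.78, and the DEGs among the members from 1 to 2, with 1 without Day 7 AMI heart 3.

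For list genes with an FDR below 0.05, alternatives were chosen after seeing the data. Of 2580 values with a heart left out 140 no longer passed and none changed sign. Under other scalings, of 850 values 163 no longer passed and 35 changed sign. With library sizes alone those were Mef2d (0.010) and Corin (0.033) on Day 1, and Irx4 (0.047), Cacna1h (0.078) and Tnnc1 (0.0024) on Day 7. With limma (pseudocounts of 1 and 0.1) they were, on Day 1, Mef2d (0.16 and 0.16), Corin (0.075 and 0.076), Hdac5 (0.12 and 0.12), Ryr2 (0.0165 and 0.0166) and Mef2a (0.035 and 0.036). On Day 7 they were Mef2d (0.10 and 0.10), Nkx2-5 (0.052 and 0.053), Srf (0.12 and 0.12), Hcn2 (0.065 and 0.073), Irx4 (0.23 and 0.23), Cacna1h (0.44 and 0.52), Parp1 (0.17 and 0.18), Actn2 (0.14 and 0.14), Thra (0.032 and 0.032) and Tnnc1 (0.15 and 0.15).

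With the replicate number as a block, Acta1 on Day 7 no longer passed (1.30) and Myh6 between the days did (-0.32), and no other member's call changed. The DEGs among all genes were 1621, 3240 and 1696 with the block. Deviations of same-numbered hearts correlated between -0.244 and 0.229, so the numbers were not taken to pair the hearts. The sign-flip test of the ratios in these pairs cannot give a p below 0.125, so no ratio could pass it.

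The Sham hearts served both AMI comparisons, 4 hearts a group give an exact p no smaller than 0.0286, and 3 against 4 none smaller than 0.0571. Whole hearts mix cell types and regions, TPM and counts were scaled differently, and in the counts reads shared by Myh6 and Myh7 or by overlapping antisense genes could not be assigned here.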
